A study of Mus musculus with 2 samples.

Results

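Interferon-stimulated genes were examined at baseline in CH12.LX, an immortalized mouse line from a B cell lymphoma. The members were 35 named genes of the interferon response, given as a list of symbols. All 35 were found among the 43346 Ensembl gene entries measured. Polyadenylated RNA had been sequenced with single-end reads in 2 libraries, labelled as biological replicates 1 and 2 from separate biosamples. Both were of strain B10.H-2aH-4bp/Wts, with sex given as female, and they formed 1 group. The labels named neither interferon nor any other treatment, so the values below are levels in the untreated line and differences between its 2 libraries. The line derives from 1 donor, so the spread between libraries is not a spread between animals.

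Interferons are secreted proteins, and cells release those of type I and III on sensing viral nucleic acid. All interferons bind receptors that activate JAK kinases and STAT factors. Type I and III interferons act mainly through the interferon-stimulated response element (ISRE), which is bound by a complex that holds STAT2 and IRF9, whereas interferon gamma acts mainly through the gamma-activated site (GAS). The target genes include sensors, nucleic acid enzymes, GTPases and ubiquitin-like modifiers that limit viral growth, and many of them are also transcribed at some level without interferon.

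Levels are given in TPM, a unit of transcript abundance that corrects for gene length and library depth, in replicate 1 and then in replicate 2. Replicate 1 held 22986749 expected counts on Ensembl entries and replicate 2 held 25701557. All 6 B cell markers were detected, with summed levels of 1266 and 1357 TPM. Markers of other cells were low: 1 of 6 plasmacytoid dendritic cell markers was detected (sums of 11.3 and 10.1 TPM), 1 of 6 macrophage and monocyte markers (3.95 and 3.27), 0 of 5 T and NK cell markers (1.06 and 1.60), 0 of 3 erythroid markers (0.34 and 0.24) and 0 of 4 of fibroblasts and endothelium (0.52 and 0.55). The Y-linked Ddx3y stood at 29.1 and 25.4 TPM and Xist had 1 and 0 counts, against the sex on the label.

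The members split widely by level in the untreated line. Of the 35, 23 (65.7%) were detected, meaning at 1 TPM or more in both libraries, against 48.0% of 21474 protein-coding genes. With a threshold of 5 TPM it was 14 of 35, against 39.2% of protein-coding genes. A gene was called high when its mean TPM reached 21.03, the median of the detected protein-coding genes. By that measure 8 members (22.9%) were high, against 24.0% of protein-coding genes, so the high share lay near the background. The 8 were Bst2, Gbp3, Samhd1, Ifi35, Sp100, Trim25, Gbp2 and Parp9. A further 15 were detected below that level and 12 were not detected. The median of the members was 4.66 TPM, beside 0.768 TPM for all protein-coding genes and 21.03 for the detected ones. The high members carried 83.9% and 82.7% of the members' summed 619 and 551 TPM. Nearest to the thresholds, Ifit1 was just inside detection at 1.95 and 1.73 TPM and Oas1a just outside at 1.04 and 0.83. Parp9 was the lowest of the high genes at 26.6 and 24.5 TPM, and Isg20 came next below at 16.6 and 14.7.

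**Figure D1:**
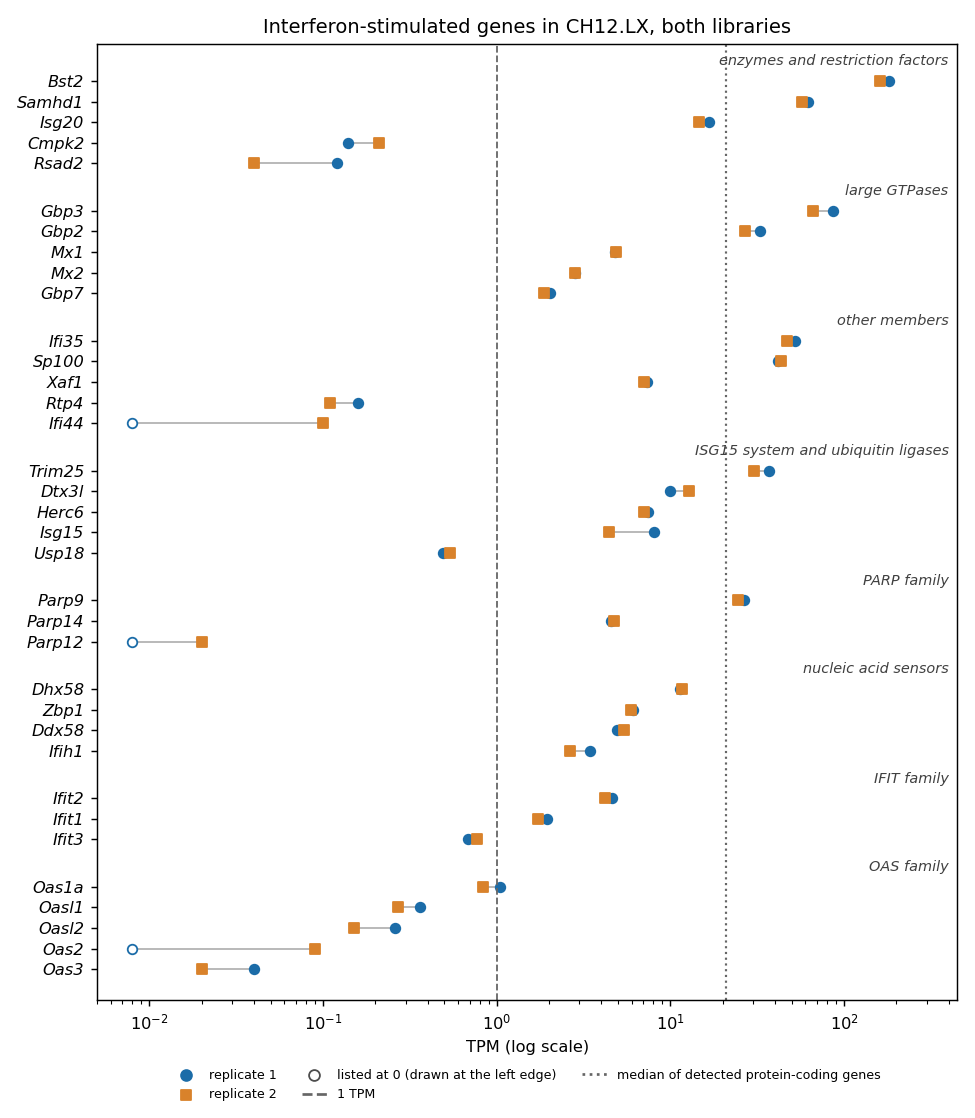
TPM of each of the 35 members on a log axis, by role, with circles for replicate 1 and squares for replicate 2. The dashed line is 1 TPM and the dotted line 21.03 TPM, the median of detected protein-coding genes. Open points are values listed at 0. Bst2 lies farthest right at 180.5 and 160.4 TPM, and all 5 OAS genes lie at or left of about 1 TPM.

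Letters matching the ISRE core stood in the promoters of both high and undetected members. Promoter windows from 250 bases before to 50 after the RefSeq start (GRCm38.p6) were at hand for 26 of the 35 genes. The ISRE core searched was GAAANNGAAA, read as TTTCNNTTTC on the other strand. It was found for 12 of the 26 members (46.2%), against 3.99% of 27025 genes with a window. It was present in 3 of 7 high members, 5 of 10 detected members below that level and 4 of 9 undetected members. For 2 of the 5, Ddx58 and Ifih1, the only match began after the start, by 2 and 32 bases. The stretches below show the matches of the 3 highest and the 3 lowest members that hold a core before the start. Capitals mark the cores, and each sequence runs 5′ to 3′ on the gene's strand.

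Bst2: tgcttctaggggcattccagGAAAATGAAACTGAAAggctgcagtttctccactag
Gbp3: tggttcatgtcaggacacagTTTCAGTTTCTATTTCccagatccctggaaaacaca
Gbp2: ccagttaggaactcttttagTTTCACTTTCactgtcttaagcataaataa
Ifit3: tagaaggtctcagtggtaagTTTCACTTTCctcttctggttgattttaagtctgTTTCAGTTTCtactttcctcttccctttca
Rsad2: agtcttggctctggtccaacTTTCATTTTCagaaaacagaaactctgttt
Oas3: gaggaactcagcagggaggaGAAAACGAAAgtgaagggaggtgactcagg

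These lie at chr8:71537567-71537622 on the minus strand for Bst2, chr3:142559979-142560034 on the plus strand for Gbp3 and chr3:142620584-142620633 on the plus strand for Gbp2. Those of the undetected genes lie at chr19:34583353-34583436 on the plus strand for Ifit3, chr12:26456543-26456592 on the minus strand for Rsad2 and chr5:120777705-120777754 on the minus strand for Oas3. Bst2 and Gbp3 each hold 2 overlapping cores, and Ifit3 holds 2 that stand apart. Isg15, the ubiquitin-like modifier, had 3 overlapping cores, with the first beginning 78 bases before the start. The GAS core searched was TTCNNNGAA, which reads the same on both strands. It was found for 7 of the 26 members (26.9%), against 9.55% of all genes with a window. Those were Bst2, Samhd1 and Ifi35 of 7 high genes, Isg20, Ifit2 and Gbp7 of 10 at intermediate level, and Oas1a of 9 undetected genes. Both cores were present for 3 members, and they overlapped for Bst2 alone. These are matches of letters in a fixed window, and no binding was measured. Dhx58, Mx1, Mx2, Oas2, Parp9, Parp14, Rtp4, Usp18 and Zbp1 were without a window.

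**Figure D2:**
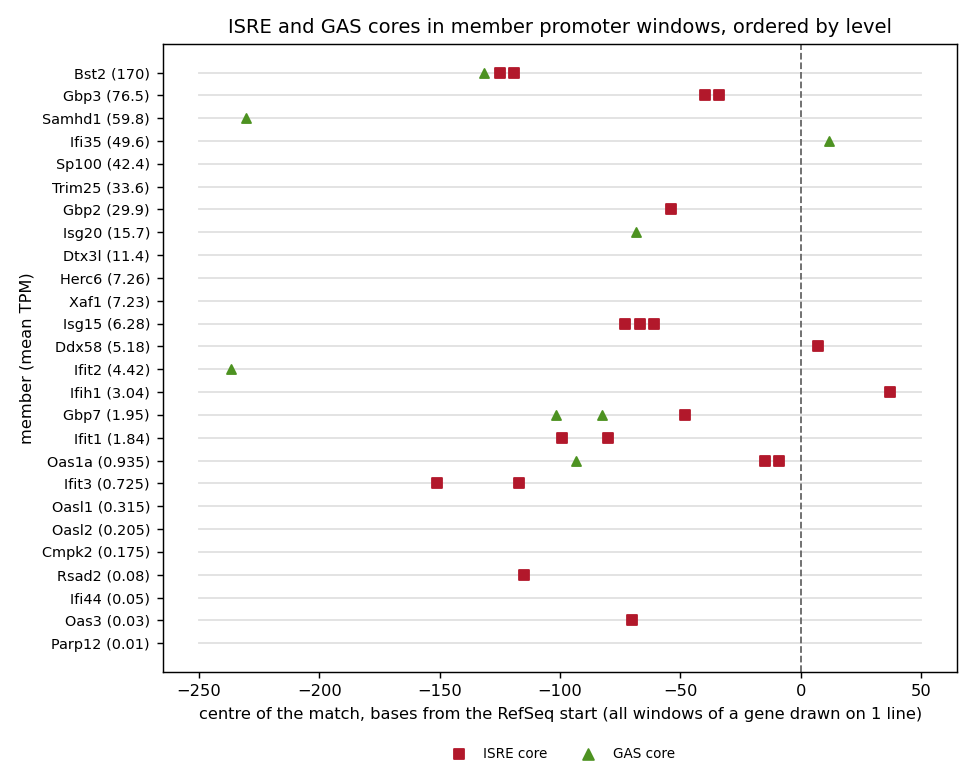
Centres of ISRE cores (squares) and GAS cores (triangles) in the promoter windows of 26 members, in bases from the RefSeq start, with members ordered from the highest mean TPM at the top. ISRE cores appear in the upper, middle and lower parts of the order, in 3 of 7, 5 of 10 and 4 of 9 genes.

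Restriction factors and nucleotide enzymes held both the highest member and some of the lowest. Bst2 encodes tetherin, which holds budding virus particles at the cell surface and is also a surface marker of plasmacytoid dendritic cells. It stood at 180.5 and 160.4 TPM (170.4 ± 14.2, SD, n = 2), at percentile 96.3 of protein-coding genes, on 2141 and 2115 counts. It alone gave 29.2% and 29.1% of the members' summed TPM. Siglech, another marker of plasmacytoid dendritic cells, was at 0.32 and 0.48 TPM, and Pacsin1 was the 1 marker of that list detected, at 10.1 and 8.98. Samhd1, which hydrolyses deoxynucleotides, stood at 62.1 and 57.4 TPM (59.8 ± 3.37, SD, n = 2). Isg20, an exonuclease, stood at 16.6 and 14.7. In contrast, Rsad2, which encodes viperin, an enzyme that makes a chain-terminating nucleotide, had 3 counts in each library, or 0.12 and 0.04 TPM. Its neighbour Cmpk2, a mitochondrial nucleotide kinase, had 7 and 12 counts, or 0.14 and 0.21 TPM. Rsad2 and Cmpk2 were thus undetected, while Bst2, Samhd1 and Isg20 were detected.

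All 5 large GTPases were detected. The guanylate-binding proteins, which coat intracellular pathogens, differed strongly among themselves. Gbp3 stood at 86.3 and 66.7 TPM (76.5 ± 13.9, SD, n = 2) and Gbp2 at 33.0 and 26.8 (29.9 ± 4.36), while Gbp7 stood at 2.03 and 1.87. Gbp7 is next to Gbp3 on chromosome 3, with 9877 bases between them, and Gbp3 was 42.5-fold and 35.7-fold higher in replicates 1 and 2. The myxovirus resistance genes were lower, Mx1 at 4.79 and 4.86 TPM and Mx2 at 2.81 and 2.83. Many laboratory mouse strains carry defective Mx genes, and the annotation types Mx2 as a polymorphic pseudogene. Which alleles this line carries was not tested.

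The 4 nucleic acid sensors were all detected and all at intermediate level. Dhx58, which encodes LGP2, a regulator of the RIG-I-like receptors, led at 11.4 and 11.6 TPM. Zbp1, a sensor of Z-form nucleic acid, stood at 6.09 and 5.96 TPM. Ddx58, which encodes RIG-I, stood at 4.95 and 5.42, and Ifih1, which encodes MDA5, at 3.43 and 2.65. The levels of Dhx58, Zbp1, Ddx58 and Ifih1 kept this order in both libraries.

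Genes of the ISG15 system were uneven. Isg15 itself, which is attached to proteins like ubiquitin, stood at 8.10 and 4.45 TPM (6.28 ± 2.58, SD, n = 2) on 95 and 58 counts. Herc6, a ligase of ISG15 in mouse, stood at 7.48 and 7.04 TPM. Usp18, the protease that removes ISG15 and damps signalling at the interferon receptor, was not detected, at 0.49 and 0.54 TPM on 14 and 17 counts. The ubiquitin ligase Trim25, which acts with RIG-I, was high at 36.9 and 30.3 TPM, and Dtx3l stood at 9.90 and 12.8. Its partner Parp9, an ADP-ribosyltransferase family member, stood at 26.6 and 24.5 TPM. Of the other PARP genes, Parp14 stood at 4.58 and 4.74 TPM and Parp12 had 0 and 1 counts. In replicate 1, the count of 0 for Parp12 allows up to 0.0880 TPM at 3 counts, a limit that covers counting error only.

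The IFIT and OAS genes, which bind or respond to foreign RNA, were low or undetected. IFIT proteins bind RNA ends that lack host marks. Ifit2 stood at 4.62 and 4.21 TPM, Ifit1 at 1.95 and 1.73, and Ifit3 at 0.68 and 0.77. Ifit2 was thus 6.79-fold and 5.47-fold above its neighbour Ifit3. Enzymatically active proteins of the OAS family make the short adenylate chains that switch on RNase L. Of 5 members of that family 0 were detected at 1 TPM in both libraries. Oas1a straddled the threshold at 1.04 and 0.83 TPM, Oasl1 stood at 0.36 and 0.27, and Oasl2 at 0.26 and 0.15. Oas3 had 3 and 2 counts, and Oas2 had 0 and 2, where the 0 in replicate 1 allows up to 0.0674 TPM at 3 counts.

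Of the remaining members, Ifi35 stood at 52.3 and 46.9 TPM and Sp100, a component of PML nuclear bodies, at 41.7 and 43.1. Xaf1, an antagonist of the apoptosis inhibitor XIAP, stood at 7.38 and 7.08 TPM. Rtp4, a chaperone of receptors in the secretory pathway, had 4 and 3 counts, at 0.16 and 0.11 TPM, and Ifi44 had 0 and 2 counts. For Ifi44 the 0 in replicate 1 allows up to 0.0951 TPM. The 12 undetected members therefore included Rsad2, Oas2, Oas3, Ifi44, Parp12 and Rtp4, each with at most 4 counts in a library.

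The transcript tables showed that the level of a gene was not always that of a protein-coding transcript. The share on protein-coding transcripts was 90% or more in both libraries for 13 of the 23 detected members. Bst2, Isg15, Herc6 and Ifit1 have 1 annotated transcript each in these tables. Samhd1 had 47.0% and 54.0% of its TPM on protein-coding transcripts, and its second transcript, annotated with a retained intron, held 36.2% and 29.3%. Ifi35 had 68.5% and 69.7% on its 1 coding transcript, with 28.0% and 26.7% on a transcript annotated as a target of nonsense-mediated decay. Dhx58 and Ddx58 had 69.5% and 69.1%, and 66.2% and 66.8%, on coding transcripts. Each of these 4 genes differed by less than 10 percentage points between the libraries. Mx1 was led by a transcript typed for nonsense-mediated decay, at 40.3% and 44.3% of the gene. The same transcript led in both libraries for 20 of 23 genes, and the 3 exceptions were Mx2, Ifih1 and Xaf1. For Mx2 a transcript typed as polymorphic pseudogene held 75.8% in replicate 1 and 0.01% in replicate 2. For Trim25 the leading transcript held 63.0% and 88.4% and the second 37.0% and 11.6%, both protein coding, and its TPM was lower in replicate 2 while its scaled counts had a log2 ratio of 0.07. Splits among transcripts of a gene with few counts are estimates from short single-end reads, and no test was made of them.

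**Figure D3:**
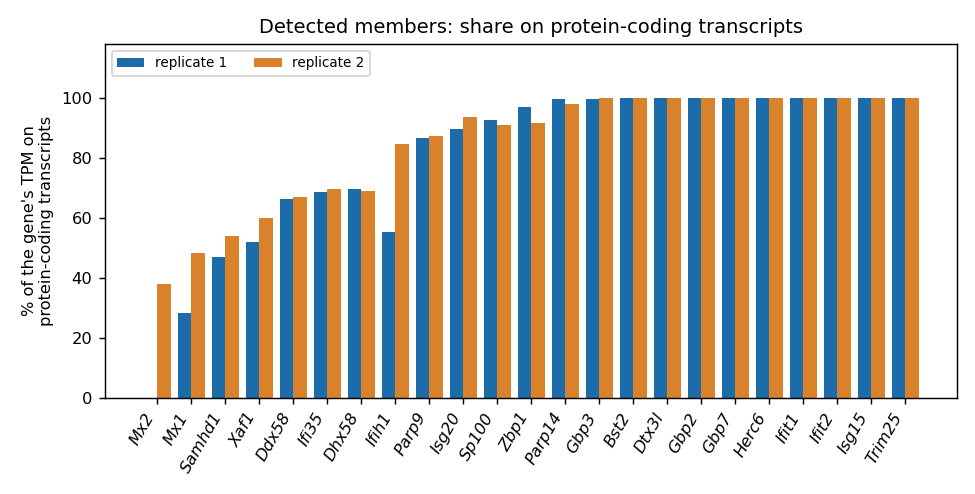
Percent of each detected member's TPM on transcripts annotated as protein coding, with 1 bar per library for 23 genes. Bars reach 90% or more in both libraries for 13 genes, while Mx2, Mx1, Samhd1 and Xaf1 stand lowest.

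Some members next to each other in the genome differed in level, and others were undetected together. Parp9 and Dtx3l are transcribed in opposite directions on chromosome 16 (mm10), Dtx3l from 35926511 to 35939151 and Parp9 from 35938470 to 35972605, and their ends overlap at the starts. Parp9 was 2.68-fold above Dtx3l in replicate 1 and 1.91-fold in replicate 2. Parp14 follows on the same chromosome at 4.58 and 4.74 TPM. Because the strand of the reads is not given in the sources used here, reads in the overlap of Parp9 and Dtx3l cannot be told apart by strand. Of the 36-base stretches of Dtx3l transcripts, 7.36% also occur in Parp9. On chromosome 12, Rsad2 and Cmpk2 were both undetected, and on chromosome 5 so were Oas2 and Oas3, and Oasl1 and Oasl2.

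Most members could be told from their relatives by sequence. For 29 of 35 members, at least 90% of the 36-base stretches in their annotated transcripts occurred in no other gene. The lowest shares were 34.3% for Oas1a, which shares 65.7% with Oas1g, and 41.5% for Ifit3, which shares 58.5% with Ifit3b. Oas1a and Ifit3 were also the members whose deposited posterior SD exceeded 5% of the count in a library, at 8.35% and 10.6% for Oas1a and 6.03% and 3.62% for Ifit3. The values of Oas1a and Ifit3 are therefore uncertain. Gbp3 could be told from its neighbour Gbp7, with 5.05% of its stretches found there.

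Between the 2 libraries, a few members differed by more than counting error. Of the 29 members with at least 10 counts over both libraries, 6 (20.7%) differed in a two-sided exact binomial test of counts with Benjamini-Hochberg adjustment over 15340 genes, against 30.6% of all genes tested. Of the 29, 1 was called higher in replicate 2 and 5 lower, against 14.7% and 15.9% of all genes tested. Calls of this test depend on the counts of a gene, and the gap between 20.7% and 30.6% was not tested. Isg15 was lower in replicate 2 by the largest ratio of the called members, a log2 ratio of -0.84 (adjusted p = 0.00186, exact binomial test). Gbp3 followed with -0.36 (adjusted p = 2.76e-23), Gbp2 with -0.28 (6.77e-06) and Bst2 with -0.15 (0.00253) in the same exact test. Mx2 had -0.56 (adjusted p = 0.0495, exact binomial test), but its TPM was alike in both libraries, and the leading transcript differed between them. Dtx3l was the member higher in replicate 2, with a log2 ratio of 0.41 (adjusted p = 3.73e-09, exact binomial test), whereas Parp9 had -0.07 and did not pass. The median over the 29 members was -0.07, beside 0.00 over all tested genes.

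The test compares 2 libraries and holds counting error only. With edgeR's negative binomial exact test, which uses the spread over all genes, 0 of 29 members and 2.54% of all genes differed after adjustment. At an unadjusted p under 0.05 the number of members was also 0, and the share of all genes at that threshold is not given here. That spread was estimated from these same 2 libraries, so it already holds the differences under test. Few calls follow from this setting, and no conclusion about the members is drawn from them.

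**Figure D4:**
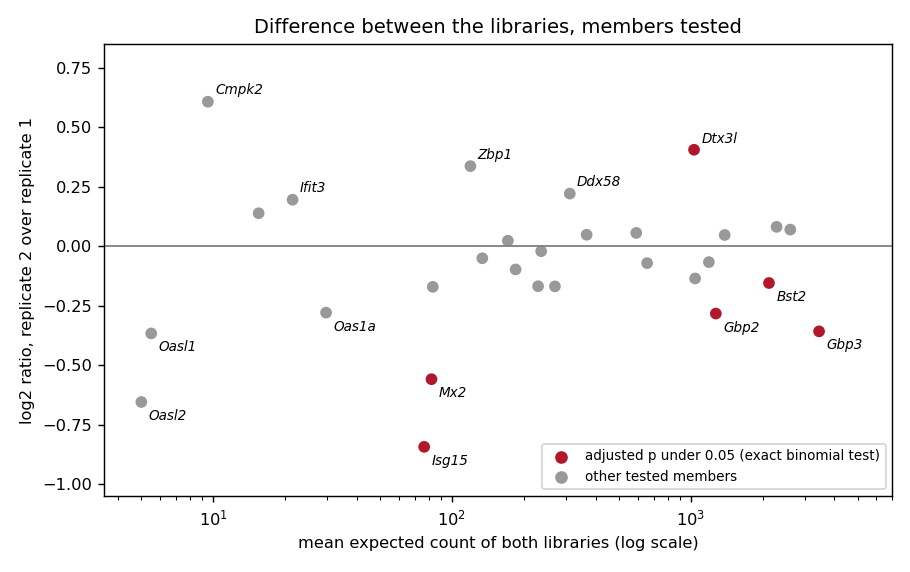
Log2 ratio of replicate 2 over replicate 1 against the mean expected count on a log axis for 29 members. Dark red points passed the exact binomial test, and Isg15 at -0.84 and Dtx3l at 0.41 are the most distant of those in each direction.

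Other genes of the pathway were given from lists. Of 20 interferon genes 0 were detected, and 18 of them had 0 counts in both libraries, among them Ifnb1 and Ifng. At 3 counts per library the limit for Ifnb1 is 0.258 and 0.232 TPM. Ifne and Ifnk had 1 count each in replicate 1 and 0 in replicate 2. Interferon alpha transcripts are near copies of each other, so reads could be split among them, but all of the listed ones were at 0.

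Of 6 receptor chains, 5 were detected. The type I chains Ifnar1 and Ifnar2 stood at 30.2 and 32.8 TPM and at 26.0 and 25.4, and the interferon gamma chains Ifngr1 and Ifngr2 at 21.1 and 19.5 and at 28.2 and 26.9. Ifnlr1, the specific chain for interferon lambda, had 2 and 1 counts. All 13 JAK, STAT and IRF genes were detected. Irf9 and Stat2, parts of the ISRE-binding complex, stood at 9.65 and 9.38 TPM and at 6.24 and 6.41. Among the IRF factors Irf5 led at 104.6 and 118.02 TPM, and Irf7, itself an interferon-stimulated gene, stood at 5.78 and 6.39.

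Of 10 sensing adaptors and kinases, 8 were detected. Tmem173, which encodes the DNA-sensing adaptor STING, stood at 52.2 and 63.4 TPM. Mb21d1, named Cgas in the annotation and encoding the enzyme that makes the STING ligand, was at 0 counts in each library, with limits of 0.0568 and 0.0511 TPM at 3 counts. Mavs, the adaptor of RIG-I and MDA5, stood at 20.8 and 25.4 TPM, and Tlr3 straddled the threshold at 0.91 and 1.04. Of 10 brakes and nucleic acid clearance genes, 9 were detected. Ptpn6, which encodes the phosphatase SHP-1, was the highest of them at 630.5 and 431.2 TPM, and its counts were lower in replicate 2 with a log2 ratio of -0.25 (adjusted p = 1.69e-33, exact binomial test). Socs1, an inhibitor of JAK kinases, stood at 39.7 and 45.1 TPM, and the RNA editor Adar at 24.9 and 24.2. Trex1, the DNA exonuclease that limits STING signalling, stood at 15.9 and 18.5, while Socs3 was below 1 TPM at 0.83 and 0.61.

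In the exact binomial test of the libraries, which called 30.6% of all tested genes (14.7% higher and 15.9% lower in replicate 2), 1 of 5 tested receptor genes (20%) was called, higher in replicate 2, and so were 3 of 13 JAK, STAT and IRF genes (23.1%). Among 9 tested adaptors and kinases, 5 were higher in replicate 2 and 1 was lower (66.7% called). Among the 10 brakes and clearance genes, 2 were higher and 3 lower (50% called).

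A further list of 47 interferon-stimulated genes, of which 45 were measured, had a higher median than the members, at 19.8 against 4.66 TPM. Of the 45, 40 (88.9%) were detected and 22 (48.9%) were high, against 48.0% and 24.0% of protein-coding genes. Ly6e, a surface protein of B cells and other cells, stood at 942.7 and 1114 TPM. The proteasome activator genes Psme2 and Psme1 stood at 511.5 and 562.6 and at 492.0 and 544.0, and Lgals3bp at 241.6 and 251.4. Although its TPM was higher in replicate 2, the scaled counts of Psme2 were lower there, with a log2 ratio of -0.20 (adjusted p = 1.11e-12, exact binomial test). Among the 42 tested, the exact binomial test called 8 higher in replicate 2 and 4 lower, and this share of 28.6% lay near the 30.6% of all tested genes. Both lists were assembled by hand with earlier results of these data known. No test was made of these shares or of the difference between the medians.

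**Figure D5:**
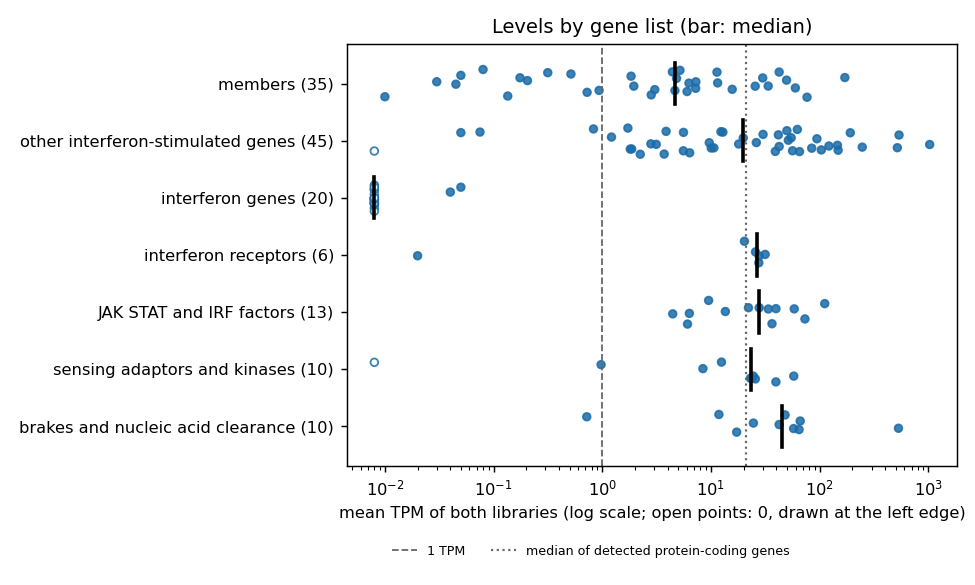
Mean TPM of both libraries on a log axis for the members and 6 lists of related genes, 1 point per gene, with the median as a bar and the number of genes in brackets. Open points are at 0. The members spread from 0.01 to 170.4 TPM, while 18 of 20 interferon genes are at 0 and the receptor and signalling lists have medians above 20 TPM.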

How the data were processed

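Per the notes deposited with the files, each library has gene and transcript tables made from transcriptome alignments on mm10 with GENCODE M4. Which aligner and quantification program made them is not given in the sources used here. Expected counts, as deposited, estimate the reads of a gene, and the deposited posterior mean counts and their SDs are a second estimate. The authors scaled TPM and FPKM by gene length and library depth, and a deposited percent column splits each gene among its transcripts. Names, types and coordinates came from GENCODE M21 on GRCm38 (the assembly of mm10) by identifier without version, and 42462 of 43346 Ensembl entries matched. Mb21d1 was matched through RefSeq synonyms; Gbp5 and Gbp6 were not analysed here. The 26248 entries with only a number as name held 0.0426% and 0.0539% of the counts and stayed out of library sizes and tests.

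Expected counts were rounded, and genes with at least 10 counts over both libraries were tested with exact binomial tests (scipy 1.17.1) against TMM library sizes (edgeR 4.0.16), with Benjamini-Hochberg adjustment at 0.05. Log2 ratios used a pseudocount of 0.5. Alternatives used DESeq2 1.42.0 size factors and other units, thresholds and estimates. The test was checked on data simulated with counting error only. Because the test assumes the same, this check does not cover any wider spread between libraries. On the deposited libraries the test called 4692 of 15340 genes, so the libraries are not 1 library deposited in duplicate. Promoter windows came from RefSeq on GRCm38.p6. The members and lists were chosen with earlier results of these data known. The genes named are all members and, of each list, the highest and those that were undetected. Further genes of the lists, such as Irf9, Stat2, Irf7, Mavs, Socs1, Adar, Trex1 and the families in the closing section, were chosen after their values were seen. Counts of 0 were bounded with 3 counts. Because nothing beyond the labels shows that the biosamples were separate cultures, differences between the libraries may be technical. The exact binomial p-values hold counting error only and measure no spread between cultures.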

Additional observations from a re-analysis of the deposited data

How the results depend on the processing

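The number of detected members (23) lay between 23 and 26 under 0.5 TPM, 10 expected counts, FPKM, posterior mean TPM, rescaled TPM and either library alone (23 and 24), and fell to 14 at 5 TPM, where Isg15, Mx1, Mx2, Ifit1, Ifit2, Ifih1, Ddx58, Gbp7 and Parp14 were lost. The number of high members (8) was 11 at a mean of 10 TPM and 3 at the upper quartile of detected protein-coding genes (55.0 TPM), which kept Bst2, Gbp3 and Samhd1, and 8 with FPKM, posterior mean TPM, rescaled TPM and either library alone. With detection at 5 TPM, the median of detected genes rose and Parp9 was no longer high. The median level of 4.66 TPM became 3.31 in FPKM, a unit on another scale, and 4.45 and 4.62 without replicate 1 and without replicate 2. Of the 6 members that differed between the libraries, 5 remained with posterior mean counts or with no filter on low counts, both without Mx2, whose adjusted p was then 0.0508 and 0.0700, and 0 with edgeR's negative binomial exact test. With library totals Ifi35 was also called (log2 ratio -0.16, adjusted p = 0.0400, exact binomial test). No called ratio changed sign. The median log2 ratio lay between -0.09 and -0.07 in all fits. No paired analysis was possible because the 2 libraries form a single group.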

Other observations

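Levels also differed within families of interferon-stimulated genes outside the 35 members. In the OAS cluster, Oas1c stood at 3.63 and 2.64 TPM and Oas1b at 1.70 and 1.92 TPM in replicates 1 and 2. The annotation types Oas1b as a polymorphic pseudogene. Both were above Oas1a at 1.04 and 0.83 in both libraries, a gene whose values are uncertain, as stated above. Oas1g had 0 counts in both libraries, but it shares 65.7% of the 36-base stretches of Oas1a, so how reads were divided between these copies was not tested. Of the interferon-induced transmembrane proteins, which block virus entry, Ifitm2 stood at 128.5 and 163.1 TPM and Ifitm1 at 8.42 and 10.9, while Ifitm3 had 1.05 and 0 expected counts. Ifitm2 was higher in replicate 2 with a log2 ratio of 0.36 in the exact binomial test.

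The immunity-related GTPases, which act on vacuoles that hold pathogens, ranged from Igtp at 51.2 and 51.8 TPM and Irgm1 at 40.8 and 37.3 to Irgm2 at 3.61 and 3.81 and Ifi47 at 2.52 and 1.95. Among the Schlafen genes, Slfn2 stood at 86.5 and 82.5 TPM, Slfn8 at 2.73 and 2.87, and Slfn5 had 1 and 7 counts. The chemokine gene Cxcl10, a common readout of interferon signalling, stood at 3.94 and 3.79 TPM, and Ccl5 at 1.49 and 0.94. Ifi204, which encodes a DNA-binding protein of the HIN-200 family, stood at 1.04 and 0.62 TPM, below the detection threshold in replicate 2. Apobec3, a restriction factor against retroviruses, stood at 190.8 and 191.8 TPM, above Bst2 in both libraries.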
